A study of Mus musculus with 18 samples.

Results

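The genes of nucleotide and one-carbon synthesis were followed through erythroid maturation in G1E-ER4 cells, from 0 to 30 h of estradiol. They were chosen by gene symbol, as Ppat, Paics, Gart, Atic, Impdh2, Cad, Umps, Shmt2, Mthfd1 and Mthfd2. Of these 10 genes, 6 had a probe set that carried their symbol and no other, and these 6 genes had 11 probe sets among the 12422 tested and stood among 8251 genes. Paics, Atic, Impdh2 and Mthfd1 were not analysed here beyond their promoter sequences. G1E is a mouse line made from embryonic stem cells in which the Gata-1 gene had been disrupted, and it is committed to the red cell lineage. All 18 arrays came from its ER4 subclone, which carries Gata-1-ER, a fusion of Gata-1 with the ligand binding domain of the estrogen receptor. Estradiol switches the fusion on, and RNA was taken untreated (0 h) and at 3, 7, 14, 21 and 30 h, each time in 3 biological replicates (A, B and C). Every group thus shared the loss of Gata-1, the fusion and a single clone. None of the 18 arrays held estradiol-treated cells without the fusion or untreated cells kept to a later time, so time in culture, estradiol and the fusion cannot be told apart.

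Dividing cells build purines on a ribose phosphate, PRPP, in a chain of steps that ends in inosine monophosphate, from which the adenine and guanine nucleotides branch off. Pyrimidines are made by a separate route that ends in uridine monophosphate. Folate carries the one-carbon units that the purine ring and thymidylate need, and serine is a main donor of them, largely inside mitochondria. Red cell precursors divide rapidly at first and leave the cell cycle as they fill with hemoglobin, and the transcription factor Myc is known to bind and activate many of these genes in growing cells.

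Each value was the deposited signal of an Affymetrix MG-U74Av2 probe set, which reads a transcript with several short probes, on a linear scale. Array medians lay between 38.2 and 50.9, and arrays of the same time correlated at 0.954 to 0.974. Log2 changes are later minus earlier time. Since 16 was added to every signal before the log, they understate the changes of dim genes. Errors are standard errors (SE) of limma's fit to all arrays. A gene was called at an adjusted p of limma below 0.05 over all probe sets. Of the red cell markers, which check the label, 6 of 8 measured were higher at 30 h than at 0 h and 1, Rhag, was lower, and their summed signal was 56790.5 to 67335 at 30 h, against 11709 to 13701 at 0 h. Summed markers of mast cells and basophils reached 124 to 152 at 30 h, against 128 to 162 at 0 h, with 1 of 6, Cpa3, called lower. Those of neutrophils and macrophages reached 216 to 399.7 at 30 h, against 199 to 257 at 0 h, with 0 of 8 called. Fibroblast and stromal markers summed to 728 to 1008 at 30 h, against 556 to 644 at 0 h, with 1 of 6, Vim, called higher. The sums were 72.6 to 79.8 at 30 h against 67.3 to 71.5 at 0 h for megakaryocyte markers (0 of 4 called), and 120.3 to 182 at 30 h against 149.8 to 215 at 0 h for lymphocyte markers (0 of 6 called). The part of these levels in the results below was not tested.

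The 6 genes did not follow a common course. Gart, of the purine route, and Cad, which opens the pyrimidine route, lost most of their signal, with 6.86% and 15.1% of the 0 h mean at 30 h. Umps, which closes the pyrimidine route, kept 58.6% by its brightest probe set and 24.8% by 101455_at, which was also called lower. Mthfd2, of the mitochondrial one-carbon pathway, was higher than at 0 h at 14 h, at 155% of the 0 h mean, and lower at 30 h than at 21 h. Its call at 14 h was lost under 10 of 16 other settings and array omissions, and its call at 30 h against 21 h under 1 of 16. For Shmt2, its upstream partner in mitochondria, and Ppat, the entry enzyme of the purine route, no difference between times passed the test. The F test over the 6 times called 4 of the 6 genes, namely Gart (adjusted p = 3.83e-10), Cad (1.50e-05), Umps (0.00109) and Mthfd2 (0.00111), where 32.0% of all genes were called. Its adjusted p was 0.287 for Ppat and 0.524 for Shmt2. In RNA from whole cultures, fewer cells of a type and less RNA of a gene per cell cannot be told apart, and all arrays were scaled to a common mean, so a change of total RNA per cell is not visible.

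**Figure D1:**
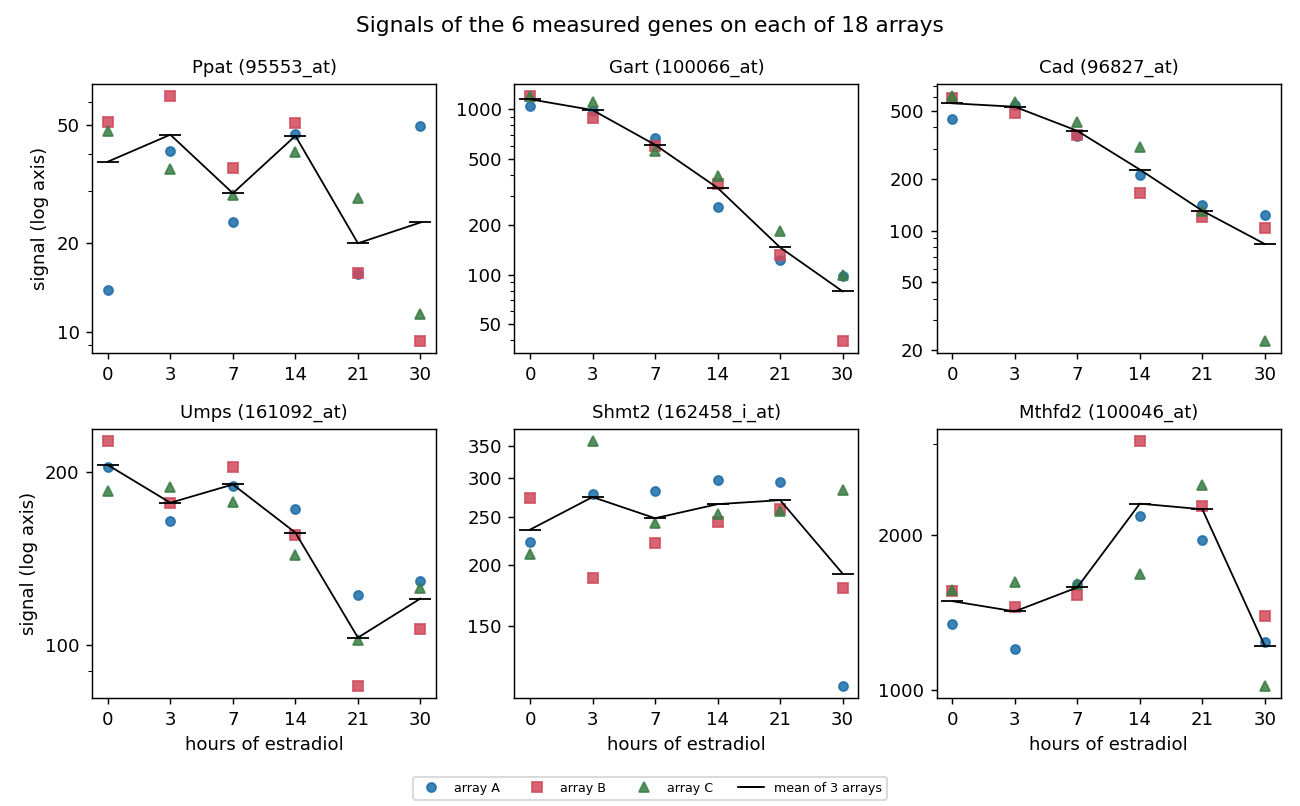
Deposited signal (log axis, each panel with its own range) of the 6 measured genes at 0 to 30 h of estradiol, times evenly spaced. Points are the 3 arrays of a time and the line joins their means: Gart lies between 39.7 and 99.9 at 30 h, below all arrays of 0 h (1051.1 to 1208.6), while Shmt2 at 30 h (113.5 to 284) spans its 0 h range.

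The promoters of the 4 genes that the F test called are shown because Gart, Cad and Umps were all lower by 21 h while Mthfd2 took another course. They are the RefSeq sequences on build GRCm38.p6, the 250 bases before the gene's start, read 5′ to 3′ on the gene's strand. Capitals mark the motifs found on either strand, where CCAAT can read ATTGG and GGGCGG can read CCGCCC. The stretches are chr16:91646973-91647222 on the minus strand for Gart, chr5:31054530-31054779 on the plus strand for Cad, chr16:33967039-33967288 on the minus strand for Umps and chr6:83317605-83317854 on the minus strand for Mthfd2.
Gart: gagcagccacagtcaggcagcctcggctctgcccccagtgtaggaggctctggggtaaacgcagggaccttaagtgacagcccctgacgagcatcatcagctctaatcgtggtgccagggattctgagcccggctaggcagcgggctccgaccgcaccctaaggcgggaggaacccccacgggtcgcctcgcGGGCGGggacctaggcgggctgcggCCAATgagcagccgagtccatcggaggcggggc
Cad: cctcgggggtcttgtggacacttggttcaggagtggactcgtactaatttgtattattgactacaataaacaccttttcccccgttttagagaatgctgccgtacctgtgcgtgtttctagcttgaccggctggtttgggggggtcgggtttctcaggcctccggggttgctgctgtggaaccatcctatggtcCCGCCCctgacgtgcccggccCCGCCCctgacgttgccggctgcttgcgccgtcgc
Umps: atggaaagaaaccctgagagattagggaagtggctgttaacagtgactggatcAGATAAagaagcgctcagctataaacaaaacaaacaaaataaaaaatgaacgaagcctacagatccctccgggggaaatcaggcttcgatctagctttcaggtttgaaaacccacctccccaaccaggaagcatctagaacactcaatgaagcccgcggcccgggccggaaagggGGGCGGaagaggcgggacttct
Mthfd2: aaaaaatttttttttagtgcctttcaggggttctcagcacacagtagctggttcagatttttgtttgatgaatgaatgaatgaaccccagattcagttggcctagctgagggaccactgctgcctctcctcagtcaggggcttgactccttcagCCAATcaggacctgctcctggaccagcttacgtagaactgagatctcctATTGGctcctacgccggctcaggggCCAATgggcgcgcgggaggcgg

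The motifs searched were CACGTG, the E-box that Myc prefers, AGATAA and TGATAA, which Gata factors bind, and CCAAT and GGGCGG, the last pair chosen after these sequences had been read. Windows ran from 250 bases before to 50 after the start, and all 10 genes had one. Gart had CCAAT 33 bases and GGGCGG 58 bases before its start. Cad held GGGCGG at 56 and 35 bases. Umps held AGATAA at 197 and GGGCGG at 22 bases, and Mthfd2 held CCAAT at 96, 47 and 22 bases. Motif positions thus differed between Gart, Cad and Umps, and GGGCGG was the motif that those 3 shared. Since GGGCGG was chosen after these sequences had been read, this sharing carries no test. Ppat, which the F test did not call, held GGGCGG too, while Shmt2, also not called, and Mthfd2 did not. A link between GGGCGG and the falls was not tested. CACGTG was found in 3 of the 10 genes, Paics, Atic and Impdh2, and in 7.15% of 32851 mouse promoters of the same length. Those 3 genes had no expression values here, and the windows of the 6 measured genes held no CACGTG. Sites outside the windows were not searched. AGATAA was found in 1 of 10 genes and 11.2% of promoters, TGATAA in 0 of 10 and 9.05%, CCAAT in 6 of 10 and 37.4%, and GGGCGG in 8 of 10 and 35.7%. A match describes the letters of the window and does not mark a bound site.

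Ppat transfers an amide group to PRPP in the committed first step of purine synthesis. For replicates A, B and C its brighter probe set, 95553_at, gave signals of 13.8, 51.3 and 47.7 (0 h), 40.9, 62.8 and 35.4 (3 h), and 23.4, 35.8 and 29.1 (7 h). They were 46.8, 50.7 and 40.5 (14 h), 15.7, 15.8 and 28.3 (21 h), and 49.5, 9.3 and 11.5 (30 h). At 0 h replicate A lay far below B and C and at 30 h far above them, so the times overlapped. The change at 30 h was -0.50 (SE 0.37, 95% interval -1.27 to 0.26, adjusted p = 0.372, n = 3 each), an interval that includes a change of the size seen for Umps at 30 h. The size rested on single arrays: it was -0.93 without 30 h replicate A (adjusted p = 0.0651) and -0.91 without 0 h replicate A (0.0806). It was -0.31 without 30 h replicate B, -0.28 without 30 h replicate C, and -0.30 without 0 h replicate B or C. Ppat and Paics, which codes for a later enzyme of the route, start 276 bases apart on opposite strands. The other probe set, 95554_at, stayed between 2.3 and 22.8 on all arrays, and its F test gave an adjusted p = 0.471.

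Gart is a large enzyme that carries out several steps of the purine route, including an early transfer of a formyl group from folate. Its probe set 100066_at gave signals of 1051.1, 1198.9 and 1208.6 (0 h), 978.6, 888.3 and 1108.3 (3 h), and 667.5, 602.8 and 561.5 (7 h). The signals were 255.3, 355.5 and 394.9 (14 h), 123.3, 130.5 and 183.9 (21 h), and 97.7, 39.7 and 99.9 (30 h). From 7 h on, every array lay below every array of all earlier times. The mean at 30 h was 79.1 ± 34.1, against 1153 ± 88.3 at 0 h (SD, n = 3 each), 14.6 times lower. Gart fell by 3.70 on the log2 scale at 30 h (SE 0.22, 95% interval -4.16 to -3.23, adjusted p = 1.99e-10). The change was -2.88 at 21 h (adjusted p = 1.19e-08), -1.79 at 14 h (adjusted p = 1.10e-05) and -0.94 at 7 h (adjusted p = 0.0164), and the calls at 14, 21 and 30 h held under all 16 other settings and array omissions tried for each.

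The early and stepwise changes of Gart were less firm. The call at 7 h was lost without 0 h replicate B (adjusted p = 0.0619) or C (0.0661) and without 7 h replicate B (0.0580) or C (0.0734), with changes of -0.94 to -0.88, and under median scaling (0.0537). Against the time before, Gart changed by -0.69 at 7 h (adjusted p = 0.199), -0.85 at 14 h (adjusted p = 0.0496), -1.09 at 21 h (adjusted p = 0.0111) and -0.81 at 30 h (adjusted p = 0.0388). Each of these 4 steps had arrays that did not overlap. The share of all genes without overlap is not given here, so this describes the arrays and carries no test. Of the step to 14 h, the call was lost without any 1 of the 6 arrays: without 7 h replicate A (0.164), B (0.118) or C (0.0919) and without 14 h replicate A (0.244), B (0.0863) or C (0.0502). The step to 21 h lost its call without 14 h replicate B (0.0524) or C (0.0782) and without 21 h replicate A (0.0641). The step to 30 h lost it without 21 h replicate B (0.0794) or C (0.184), and without 30 h replicate B, the dimmest array, where the change was -0.50 (adjusted p = 0.186). The start of Gart lies 852 bases from that of Son, an RNA splicing cofactor gene on the opposite strand. Son's signal by 94386_at averaged 203 at 30 h, against 291 at 0 h (-0.42, SE 0.21, adjusted p = 0.163), and by 100401_at 206 at 30 h, against 171 at 0 h (0.36, adjusted p = 0.107), so neither probe set of this neighbour passed the test.

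Cad joins the opening activities of pyrimidine synthesis in 1 protein. Probe set 96827_at gave 450.7, 596.7 and 611 (0 h), 539.7, 484 and 560.8 (3 h), and 356.4, 362.2 and 427.8 (7 h). It gave 210.8, 164.8 and 305.7 (14 h), 140.7, 120.7 and 129.8 (21 h), and 123.5, 103.9 and 22.7 (30 h). All arrays from 7 h on lay below all arrays of 0 h, and the 21 h and 30 h arrays overlapped. Mean signal was 83.4 ± 53.4 at 30 h, against 553 ± 88.7 at 0 h (SD, n = 3 each), 6.63 times lower. Cad fell by 2.66 on the log2 scale at 30 h (SE 0.35, 95% interval -3.39 to -1.93, adjusted p = 5.98e-06), and fell by 2.02 without 30 h replicate C, its dimmest array (adjusted p = 5.28e-07). It fell by 1.88 at 21 h (adjusted p = 0.000428). The change of -0.50 at 7 h had adjusted p = 0.625. At 14 h Cad fell by 1.22 (adjusted p = 0.0225), a call that was lost without 0 h replicate B (0.0734) or C (0.0810) and without 14 h replicate A (0.0721) or B (0.0993), and with a constant of 1 (0.0622). No step between neighbouring times passed the test, with changes of -0.43 to 7 h, -0.73 to 14 h, -0.66 to 21 h and -0.77 to 30 h (adjusted p = 0.785, 0.392, 0.422 and 0.266). A dim probe set, 161323_f_at, whose suffix marks probes that may read related transcripts, changed by -0.64 at 30 h (adjusted p = 0.117). Averaging both probe sets gave -1.65 for Cad at 30 h (adjusted p = 0.000161) and -0.61 at 14 h (adjusted p = 0.190).

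Umps carries the last reactions to uridine monophosphate. The signals of 161092_at were 204.2, 227 and 185.8 (0 h), 164.2, 176.9 and 188.7 (3 h), and 189.5, 204.3 and 177.7 (7 h). They were 172.3, 155.6 and 143.6 (14 h), 122.4, 84.9 and 102.1 (21 h), and 129.3, 106.7 and 125.5 (30 h). The arrays of 3 h and 7 h overlapped those of 0 h, and the arrays of 21 h and 30 h lay below all earlier ones. The mean was 120.5 ± 12.1 at 30 h, against 206 ± 20.6 at 0 h (SD, n = 3 each). Umps fell by 0.82 at 21 h (SE 0.15, adjusted p = 0.000315) and fell by 0.59 at 30 h (SE 0.15, 95% interval -0.90 to -0.29, adjusted p = 0.00401), and both calls held under all 16 other settings and omissions. The change of 0.22 at 30 h against 21 h had adjusted p = 0.507. By 161092_at, the Umps interval at 30 h did not overlap those of Gart and Cad, although the difference between genes was not itself tested. A further Umps probe set, 101455_at, gave 73.9, 69.2 and 60.6 (0 h) and 30.1, 10.1 and 10.4 (30 h), and changed by -1.18 at 21 h (adjusted p = 0.0275) and -1.41 at 30 h (SE 0.37, adjusted p = 0.00681). It was thus called at the same times with larger changes. Its 95% interval at 30 h, -2.18 to -0.63, overlapped that of Cad (-3.39 to -1.93) but not that of Gart (-4.16 to -3.23). Probe set 162071_i_at, at 3.5 to 30.9 on all arrays, was not called over time (F test adjusted p = 0.707).

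Shmt2 splits serine into glycine and a folate-bound one-carbon unit in mitochondria. Its only probe set, 162458_i_at, has a suffix that most probe sets named here lack, and no other probe set could be set beside it. It gave 222.3, 273.9 and 210.6 (0 h), 279.5, 187.7 and 358 (3 h), and 282.3, 221.8 and 243.6 (7 h). The signals were 298.2, 244.4 and 254.5 (14 h), 294.7, 260.1 and 257.8 (21 h), and 113.5, 179.8 and 284 (30 h). The arrays of every later time overlapped those of 0 h, and the arrays of 3 h and 30 h were the most spread. The change at 30 h was -0.24 (SE 0.24, 95% interval -0.75 to 0.27, adjusted p = 0.547), and 0.07 without 30 h replicate A (adjusted p = 0.883), -0.55 without 30 h replicate C (0.0982) and -0.14 without 0 h replicate B (0.803). At 21 h it was 0.30 (adjusted p = 0.483). The interval at 30 h does not include a fall of the size seen for Gart or Cad.

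Mthfd2 takes the one-carbon unit on through a dehydrogenase and a cyclohydrolase step towards formate. Its probe set 100046_at gave 1343.7, 1553.3 and 1563 (0 h), 1198.8, 1445.3 and 1616.3 (3 h), and 1608.3, 1530.5 and 1603.8 (7 h). It gave 2177, 3046.4 and 1675.6 (14 h), 1956.9, 2275.8 and 2496.2 (21 h), and 1239.9, 1389.7 and 1018.4 (30 h). All arrays of 14 h and 21 h lay above all of 0 h, those of 30 h lay below all of 21 h, and 30 h and 0 h overlapped. The mean at 14 h was 2299.7 ± 694, against 1487 ± 124 at 0 h (SD, n = 3 each), and Mthfd2 rose by 0.53 on the log2 scale (SE 0.17, 95% interval 0.18 to 0.88, adjusted p = 0.0394). That call was lost without 0 h replicate A (0.138), B (0.0676) or C (0.0768), without 14 h replicate A (0.117), and without 14 h replicate B, the brightest array, where the change was 0.34 (adjusted p = 0.215). It was also lost under median scaling (0.152), without the intensity trend (0.0818), with array weights (0.0947), with only the compared arrays (0.129) and for the mean over both probe sets, which changed by 0.30 (adjusted p = 0.449). The value of 0.45 at 21 h did not pass the test (adjusted p = 0.0632). The mean was 1216 ± 187 at 30 h, against 2243 ± 271 at 21 h (SD, n = 3 each), and Mthfd2 fell by 0.87 (SE 0.17, adjusted p = 0.00313), a call that held without any 1 of the 6 arrays, with adjusted p of 0.00446 to 0.0234. Against 0 h the change at 30 h was -0.42 (95% interval -0.77 to -0.07, adjusted p = 0.0702). The dim probe set 161478_at, at 2.5 to 42.4, was not called over time (adjusted p = 0.366), and the average of both probe sets changed by -0.07 at 30 h against 21 h (adjusted p = 0.920).

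**Figure D2:**
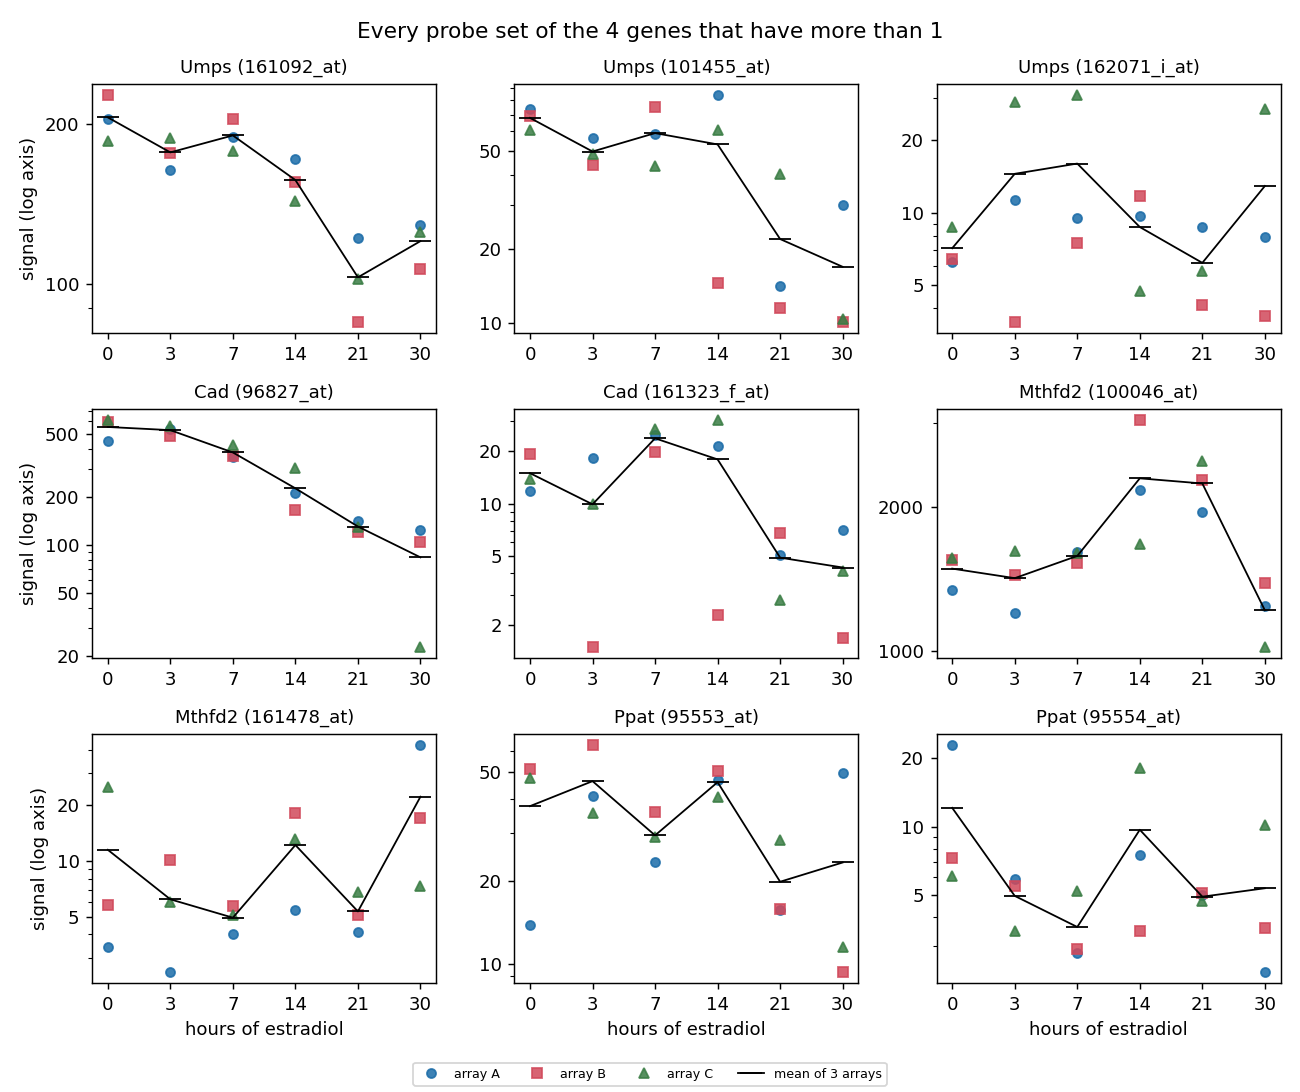
Signal (log axis, each panel with its own range) of every probe set of Umps, Cad, Mthfd2 and Ppat at 0 to 30 h of estradiol, times evenly spaced, points for arrays and lines through their means. Both brighter Umps probe sets are lower at 21 and 30 h, while 162071_i_at, 161323_f_at, 161478_at and 95554_at stay below 43 on all arrays.

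The 5 comparisons with 0 h share their 0 h arrays and are not independent. At 3 h, 0 of 6 genes passed the test of limma, where 0.388% of all genes were called lower and 1.02% higher, and 0 of 6 had an unadjusted p below 0.05. At 7 h 1 gene, Gart, was lower, where 2.11% of all genes were called lower and 3.21% higher. At 14 h 3 of 6 genes were called, with Gart and Cad lower and Mthfd2 higher, where 16.2% of all genes were called in either direction and 8.17% lower. Gart, Cad and Umps, 3 of 6 genes, were lower at 21 h, where 13.1% of all genes were lower and 11.4% higher, and at 30 h, where 16.5% were lower and 14.7% higher. With 6 genes, each gene is a large share of the count. The median change of the 6 genes was -0.09, -0.13, -0.04, -0.65 and -0.55 at 3, 7, 14, 21 and 30 h, beside medians of -0.01 to 0.05 over all genes. Between neighbouring times, 0 of 6 passed the test from 3 to 7 h (1.30% of all genes in either direction), although 1, Gart, had an unadjusted p below 0.05 (0.00561). Gart was the 1 gene lower from 7 to 14 h (1.35% of all genes called lower) and from 14 to 21 h (1.66%). From 21 to 30 h 2 of 6, Gart and Mthfd2, were lower, where 3.90% of all genes were.

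**Figure D3:**
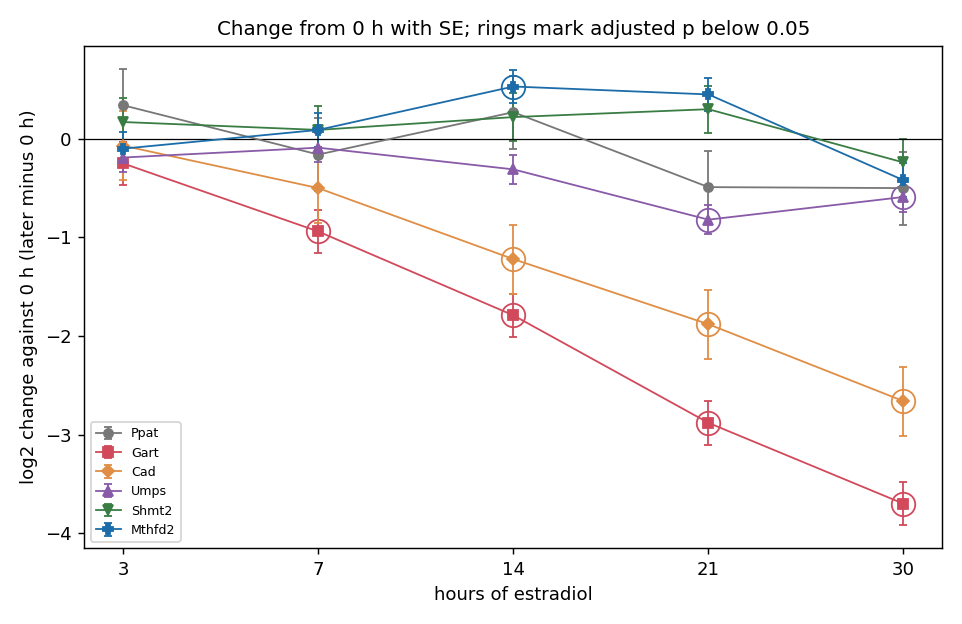
Log2 change against 0 h (later minus 0 h, 3 arrays each, bars are SE) of the 6 genes at 3, 7, 14, 21 and 30 h, times evenly spaced; rings mark an adjusted p of limma below 0.05. Gart and Cad go down to -3.70 and -2.66 at 30 h, and Mthfd2 stands at 0.53 at 14 h and -0.42 at 30 h.

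Over the 18 arrays the log2 signals of Gart correlated with those of Cad at r = 0.89 and of Umps at 0.83, and Cad with Umps at 0.75. Mthfd2 correlated with Gart at 0.03 and with Shmt2 at 0.37, and Shmt2 with Gart at 0.14. Ppat correlated with Gart at 0.53. These coefficients describe arrays that share the time course and their scaling, n = 18, and carry no test. The genes outside the pathway whose profile was most like the mean standardized profile of the 6 were Mcm7 (r = 0.955), Dnmt1 (0.951), Ybx1 (0.951), Rpn2 (0.947) and Cdt1 (0.946). Mcm7 is a subunit of the replicative helicase, Cdt1 loads it, and Dnmt1 copies DNA methylation at replication. No such role is given here for Ybx1 or Rpn2. Mcm7 averaged 230.0 at 30 h, against 1462 at 0 h, and Cdt1 73.4 at 30 h, against 1140.0 at 0 h. Dnmt1 averaged 293 at 30 h, against 1319.6 at 0 h, Ybx1 6182 against 11852, and Rpn2 136 against 657. Gart itself stood at r = 0.888 with that mean profile and Mthfd2 at 0.411. Myc fell by 0.97 at 7 h (adjusted p = 0.0459), fell by 2.08 at 14 h (adjusted p = 1.94e-05) and fell by 3.36 at 30 h (SE 0.27, adjusted p = 1.05e-08). On the 3 arrays of each time Myc read 250.6, 252.3 and 248 (0 h), 149.1, 142 and 169.7 (3 h), 152.2, 93.3 and 114.9 (7 h), 39.8, 30.9 and 78.4 (14 h), 14.9, 18.6 and 19.7 (21 h), and 11.9, 12.9 and 4.3 (30 h). At 3 h all Myc arrays lay below all of 0 h, while the Gart arrays of those times overlapped. The share of all genes whose arrays lay apart is not given here, so this carries no test. Neither change at 3 h passed the test, with -0.64 for Myc (adjusted p = 0.506) and -0.25 for Gart (adjusted p = 0.899). The order of the falls of Myc and Gart was not tested.

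The wider pathway was read from 8 lists of 69 further genes, of which 47 had a probe set. Against 0 h, 2 of the 47 were higher and 0 lower at 3 h and at 7 h. Of all genes, 1.02% were higher and 0.388% lower at 3 h, and 3.21% higher and 2.11% lower at 7 h. At 14 h 10 list genes were lower and 2 higher, where 8.17% of all genes were lower and 16.2% called in either direction. At 21 h 17 were lower and 3 higher, where 13.1% of all genes were lower and 11.4% higher. At 30 h 22 were lower and 2 higher. At 30 h the median change was -0.58, against 0.05 over all genes, of which 16.5% were lower and 14.7% higher. The same shares of all genes stand beside the counts of each list below. The count at 3 h was 1 without 0 h replicate A or B or without 3 h replicate A or B, and that at 7 h was 1 without 0 h replicate C. Genes are named by the smallest p of the F test within a list, so they were picked for changing over these times.

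In the purine route Adsl, which acts both on the way to inosine monophosphate and on the way to AMP, was the 1 gene of 2 listed that was measured. It averaged 729, 872, 591, 377, 217 and 102 over the 6 times and fell by 2.64 at 30 h (SE 0.21, adjusted p = 1.12e-08). In the branches to AMP and GMP 1 of 4 genes was lower and 1 higher at 30 h. Adss, on the AMP branch, fell by 1.43 (adjusted p = 1.91e-06, by 99039_g_at, a suffix of uncertain specificity). Guk1, guanylate kinase, rose by 0.44 (adjusted p = 0.00989). Impdh1, which opens the GMP branch, changed by -0.10 (adjusted p = 0.886) and Adssl1 by 0.49 (adjusted p = 0.256). Adssl1 was dim, with means of 4.43 to 14.9 over the 6 times.

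In the pyrimidine route and its step to CTP 4 of 6 genes were lower at 30 h and 0 higher, with a median of -1.06. Ctps, CTP synthase, averaged 803, 821, 602, 381, 205 and 136 over the 6 times and fell by 2.40 (adjusted p = 3.14e-08). Nme2, a nucleoside diphosphate kinase, averaged 199 at 30 h, against 1546 at 0 h, and fell by 2.93 (adjusted p = 1.63e-08). Nme1, its close relative, fell by 1.47 by 92794_f_at (adjusted p = 0.000478), but 161161_r_at changed by 0.11 (adjusted p = 0.805), so its direction is not settled, and the near-identical sequences of the pair make the split between them uncertain. Cmpk1, UMP/CMP kinase, fell by 0.66 (adjusted p = 0.00827). Dhodh, which acts between Cad and Umps, was read differently by its probe sets: 161397_r_at changed by 0.37 (adjusted p = 0.127) and 103683_at by -3.12 (adjusted p = 2.34e-07), so its direction is not settled. The mean by 161397_r_at, which the counts use, was 492 at 30 h, against 387 at 0 h. By 103683_at it was 8.87 at 30 h, against 203 at 0 h.

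The deoxynucleotide genes were called late. Of 6 measured, 0 were called at 14 h, and 4 were lower at 30 h, with a median of -1.23. At 21 h 1 was lower (Rrm2) and 1 higher (Rrm2b), where 13.1% of all genes were lower and 11.4% higher. Rrm2b rose by 1.13 at 21 h (adjusted p = 0.0358, named after its value was seen). Its probe set 103767_f_at was dim, with means of 11.3 at 0 h and 44.2 at 21 h, and was not called over time (F test adjusted p = 0.219). Rrm2, the regulated subunit of ribonucleotide reductase, averaged 1234, 1626, 1522, 1492, 572 and 78.0 over the 6 times. Its mean at 14 h was thus above that at 0 h, when Gart stood at 29.1% of its 0 h mean, and it fell by 1.29 at 21 h (adjusted p = 0.00691) and fell by 3.88 at 30 h (SE 0.33, adjusted p = 2.30e-08). Rrm1, the large subunit, averaged 261 at 30 h, against 1597 at 0 h, and fell by 2.64 (adjusted p = 4.21e-07), with -0.16 by the dim 161731_at (0.556). Dtymk, thymidylate kinase, fell by 1.44 (adjusted p = 0.000864). Samhd1, which breaks down deoxynucleotides and so acts against the list's name, fell by 1.03 by 103080_at (adjusted p = 0.00569), with 0.11 by the dimmer 162161_r_at (0.847).

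Among folate and one-carbon genes 3 of 6 were lower at 30 h and 0 higher, with a median of -0.59. Ahcy, which clears S-adenosylhomocysteine, fell by 2.31 (adjusted p = 4.49e-07, by 96025_g_at). Shmt1, the cytosolic counterpart of Shmt2, averaged 214, 222, 156, 116, 51.0 and 46.4 over the 6 times and fell by 1.93 (adjusted p = 5.11e-05). Its 95% interval was -2.56 to -1.29, beside -0.75 to 0.27 for Shmt2, and the difference between them was not itself tested. Fpgs, which holds folates in cells, fell by 1.01 (adjusted p = 0.00149). The folate carrier Slc19a1 changed by 0.08 by 162123_f_at (adjusted p = 0.822) and by -3.09 by 94419_at (adjusted p = 3.19e-08), which leaves its direction unsettled. By 94419_at, the brighter of the pair at 0 h, the mean was 19.4 at 30 h, against 290.5 at 0 h. By 162123_f_at, whose suffix marks probes that may read related transcripts, it was 125 at 30 h, against 126 at 0 h. The counts use 162123_f_at, so Slc19a1 is not among the genes called lower.

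Of 5 serine and glycine genes, 3 were lower at 30 h and 0 higher, with a median of -1.35. Psat1, of the serine pathway, averaged 3021, 3119.8, 2782, 2354, 1354 and 516 over the 6 times and fell by 2.59 (adjusted p = 5.32e-10). Psph, the last enzyme to serine, fell by 1.51 (adjusted p = 6.29e-06), and Gcsh, a part of the glycine cleavage system, fell by 1.35 (adjusted p = 5.46e-05). Gldc, another part of that system, changed by 0.03 (adjusted p = 0.961). With means of 7.73 to 15.8 over the 6 times, it was too dim to show a large fall. Of 4 genes around PRPP, Prps1, a PRPP synthetase, was lower, with 719, 651, 454, 305, 239.9 and 192 over the 6 times and a fall of 1.76 (adjusted p = 7.86e-07). Prps2 changed by -0.49 (adjusted p = 0.226), Prpsap1 by 0.50 (adjusted p = 0.0632) and Prpsap2 by -0.17 (adjusted p = 0.697). Prps2 was dim, with means of 11.4 to 24.8.

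Salvage and breakdown, which recycle or discard bases and nucleosides, held both directions, with 5 of 15 genes lower and 1 higher at 30 h and a median of -0.20. Hprt, which returns guanine and hypoxanthine to nucleotides, averaged 1451, 1380.1, 1165, 774, 539 and 348 over the 6 times and fell by 2.02 (adjusted p = 6.03e-09). Tk1, the thymidine kinase of dividing cells, fell by 2.66 (adjusted p = 1.45e-08), with -0.83 by the dimmer 161150_at (0.294). Dck, deoxycytidine kinase, averaged 457, 856, 761, 1066, 752 and 309.5 over the 6 times by 98071_f_at. It rose by 0.91 at 3 h (adjusted p = 0.00398) and by 1.23 at 14 h (adjusted p = 1.94e-05) and fell by 0.46 at 30 h (adjusted p = 0.0373). Ampd3, the AMP deaminase known from red cells, averaged 61.6, 148, 164, 291, 303 and 284, and rose by 1.11 at 3 h (adjusted p = 0.0140) and by 2.01 at 30 h (adjusted p = 7.85e-07). Ampd3 and Dck were the list genes called at 3 h and at 7 h, both higher, where 1.02% of all genes were higher at 3 h and 3.21% at 7 h. Adk, adenosine kinase, changed by -0.03 by 93512_f_at (adjusted p = 0.957) and by 3.22 by 97690_at (adjusted p = 9.93e-09), and Upp1, uridine phosphorylase, by 0.42 by 161325_at (adjusted p = 0.0883) and by -2.20 by 100030_at (adjusted p = 0.00187). The probe sets of Nme1, Rrm1, Samhd1, Tk1, Dhodh, Slc19a1, Adk and Upp1 were set side by side after their values had been seen.

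**Figure D4:**
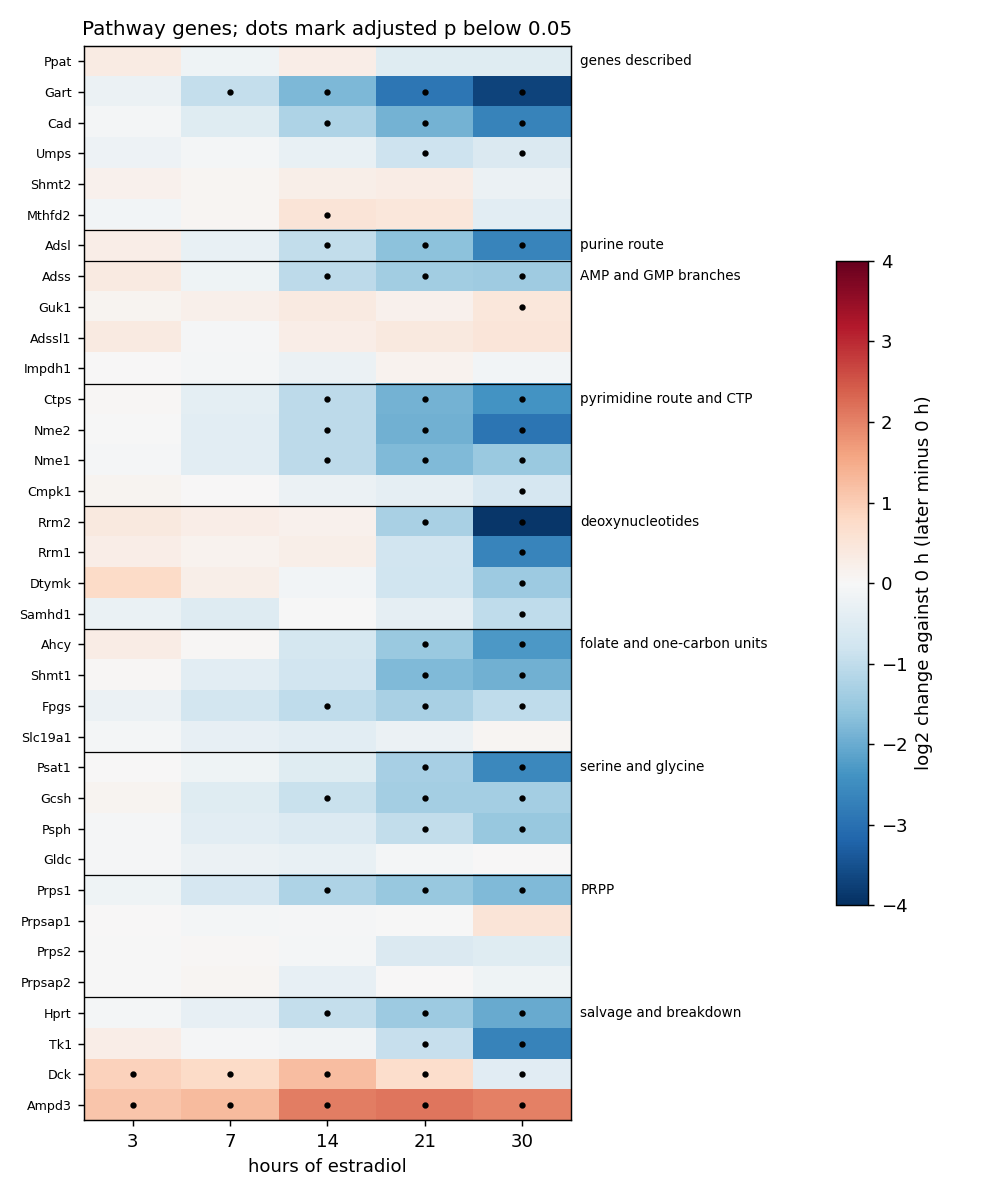
Log2 change against 0 h (colour, later minus 0 h) of the 6 genes (top block) and of the up to 4 genes named from each of 8 lists, in columns for 3, 7, 14, 21 and 30 h; dots mark an adjusted p of limma below 0.05, 3 arrays a time. Gart and Rrm2 stand lowest at 30 h (-3.70 and -3.88), while Ampd3 is higher at all 5 times.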

How the data were processed

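Total RNA was hybridized to Affymetrix MG-U74Av2 arrays, per the labels. The authors deposited a linear signal intensity for each of 12488 probe sets on 18 arrays, which they had summarised from the probes and scaled: the 2% trimmed means of all arrays were 150.094 to 150.124. The summary algorithm and detection calls are not given in the sources used here. After 66 control probe sets were left out, 10833 of 12422 had 1 gene symbol in the platform table, 396 had several and 1193 none, and 10817 of the 10833 matched the RefSeq table by gene number. For each gene the probe set with 1 symbol and the highest mean log2 signal was used. Signals plus 16 were log2 transformed, quantile normalized and fitted with limma 3.58.1 in R 4.3.3, with 1 mean for each time, an intensity trend, 12 residual degrees of freedom and Benjamini-Hochberg adjustment within each of 9 comparisons. An exact permutation of 3 against 3 arrays cannot go below p = 0.100. No depth exists for arrays, and their number limits the precision. On simulated data made from 30 h against 0 h over 12422 probe sets, the fit recovered 75.0% of 100 changes of log2 1 and 99.0% of 100 of log2 2.

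The genes, their 8 pathway lists and the markers were chosen with earlier results of these data known. The text names every probe set of the 6 genes, up to 4 list genes by smallest F test p, the 5 most like genes, Myc, and the promoter neighbour Son. Alternatives were other scalings, constants of 1 and 64, the lowest 33.3% of probe sets left out, no trend, array weights, a replicate block, only the compared arrays, the mean over a gene's probe sets, and each of 18 arrays left out. Figures were drawn with matplotlib 3.10.9.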

Additional observations from a re-analysis of the deposited data

How the results depend on the processing

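The numbers of the 6 genes called moved as follows. At 7 h against 0 h it was 1, with 0 under median scaling and 0 to 1 with an array left out. At 14 h against 0 h it was 3, with 1 for a mean over each gene's probe sets and 1 to 3 with an array left out. At 14 h against 7 h it was 1, with 0 without quantile normalization, under median scaling, with a constant of 1, without the intensity trend, with array weights or with only the compared arrays, and 0 to 1 with an array left out. At 21 h against 14 h it was 1, with 0 for only the compared arrays and 0 to 1 with an array left out. At 30 h against 21 h it was 2, with 1 under median scaling, with a constant of 64, without the trend, with only the compared arrays or with the mean over probe sets, and 1 to 3 with an array left out. Of the 47 list genes, 2 were called at 3 h, with 1 for only the compared arrays and 1 to 2 with an array left out. At 7 h 2 were called, with 1 under median scaling, 4 with a constant of 64 or with the lowest signals left out, 5 with array weights, and 1 to 3 with an array left out. Fewer arrays entered the fits that left some out; the cause of the other moves was not tested.

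Mthfd2 at 30 h against 0 h had 0.01 (adjusted p = 0.990) as the mean over its probe sets, and Shmt2 0.07 (adjusted p = 0.883) without 30 h replicate A, within -0.55 to 0.07 over the 6 arrays left out. Mthfd2 at 30 h passed the test with the lowest signals left out (0.0476) and with only the compared arrays (0.0312). Of 170 log2 changes under other settings 147 kept direction and call, and of 102 with an array left out 76 did. Among these, Gart at 14, 21 and 30 h and Cad and Umps at 21 and 30 h, each against 0 h, kept both, with Gart at 30 h between -3.95 and -3.14.

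The replicate letters were not treated as pairs, since the labels state no such design. Of 45 same-letter pairs of arrays, 3 had deviations that correlated above 0.1, with r of -0.09 to 0.20. Yet for 16 of 18 arrays the closest array of another time had the same letter, out of A, B and C. By this measure arrays of a letter were more alike than arrays of different letters. What they share was not tested, and the main fit leaves the letter out. With the replicate block 4 list genes were called at 7 h, in place of 2, and Gart at 30 h had an adjusted p of 4.62e-10; no other count moved by over 1.5 times.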
